A study of Homo sapiens with 6 samples.

Results

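The levels of 10 genes of lipid mediator metabolism and sensing were followed in Jurkat, a human line established from T cell leukaemia. They are the epoxide hydrolase genes EPHX1, EPHX2 and EPHX4, the cyclooxygenase gene PTGS1, the leukotriene pathway genes ALOX5, ALOX5AP and LTA4H, the leukotriene receptor genes CYSLTR1 and CYSLTR2, and the lysophosphatidate receptor gene LPAR6. These 10 of 58735 counted genes were chosen by symbol, with the difference between the groups already known. Their values in this comparison are therefore given as a description, without p-values, and support no claim about the group. The cells had been infected with a lentivirus carrying a short hairpin RNA, either a control hairpin (shCtrl, 3 libraries) or a hairpin against SATB1 (shSATB1, 3 libraries), a DNA-binding organiser of T cell chromatin. Both groups were thus virus-infected cells of a single line, grown in serum-containing medium. A single vector served each arm, so loss of SATB1 and other effects of that hairpin cannot be told apart. The labels name neither the hairpin sequences nor the time after infection. Reads in genes numbered 26626539 to 28913623 per library. The labels do not say whether the 3 libraries of a group come from separate infections or cultures. The p-values therefore set the difference between groups only against the spread of these libraries, which may be technical.

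Arachidonic acid and related fatty acids are cut from membrane phospholipids by phospholipases and then oxidised along separate routes. Cyclooxygenases lead to prostanoids, lipoxygenases with the helper protein FLAP lead to leukotrienes, and cytochrome P450 enzymes make fatty acid epoxides, which soluble epoxide hydrolase turns into less active diols. Lysophosphatidate is a separate signalling lipid, read by its own G protein-coupled receptors. Leukotriene synthesis is best known from myeloid and mast cells, and T cells are better known for carrying the receptors.

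The hairpin target was lower in every shSATB1 library. SATB1 stood at 279.1, 258.5 and 259.3 CPM (read counts scaled to a common library size) in shCtrl 1, 2 and 3 and at 101.8, 100.2 and 104.1 CPM in shSATB1 1, 2 and 3, a log2 fold change of -1.38 (SE 0.061, adjusted p = 1.11e-08, edgeR quasi-likelihood test). By an exact two-sided permutation test of these 6 values p was 0.1, and no smaller p is possible with 3 libraries per group. All 12 T cell markers were detected, and they moved in both directions: 5 fell (CD3D, CD247, CD2, CD5 and ZAP70, at 76.6% to 87.2% of control), 2 rose (TRAC at 138.2% and LAT at 148.2%) and 5 were not called, among them CD3E at 447.5 to 516.8 CPM. Of 12 myeloid markers, 10 stayed under 1 CPM in each library, the 12 levels summed to 2.65 to 2.94 CPM in shCtrl and 2.03 to 3.20 CPM in shSATB1, and S100A8 had no read. LYZ and SPI1, defining genes of myeloid cells, reached at most 0.144 and 0.0369 CPM. Mast cell and basophil markers summed to 11.6 to 12.5 CPM in shCtrl and 12.6 to 13.2 CPM in shSATB1, mostly KIT and GATA2, while TPSAB1 reached at most 0.0728 CPM. KIT was called lower (75.8% of control) and GATA2 higher (143.6%), so the sum hides opposite changes. B cell markers summed to 74.5 to 83.0 and 64.5 to 70.7 CPM, mostly CD79A, and CD79A and BLK were called lower (83.3% and 74.1% of control). Platelet markers summed to 8.07 to 11.1 and 9.21 to 10.2 CPM, and epithelial and liver markers to under 1 CPM in each library. Of the platelet markers, TREML1 was called lower (44.1% of control), at under 1 CPM in each library. The percentage of reads outside annotated exons was higher in shSATB1 (11.4% ± 0.436, SD, n = 3) than in shCtrl (9.10% ± 1.23), with no overlap. Reads counted as ambiguous also did not overlap between groups, at 9.54%, 10.1% and 9.84% in shCtrl and 8.99%, 9.32% and 9.03% in shSATB1.

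Of the 10 genes, 9 had at least 1 read and 8 passed the filter on low counts. In the fit over all 17520 tested genes, 2 of these 8 were called higher in shSATB1 (LPAR6 and CYSLTR2) and 2 lower (EPHX2 and LTA4H) at an adjusted p under 0.05. Over all tested genes, 14.3% were called higher, 16.6% lower and 30.9% in either direction. The groups did not overlap for the same 4 genes, against 45.1% of all tested genes. Since the genes were chosen with this contrast known, nothing is read from these shares. The median log2 fold change was -0.02 over the 8 genes and 0.01 over all tested genes. In bulk RNA, fewer cells expressing a gene and less RNA per cell cannot be told apart.

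**Figure D1:**
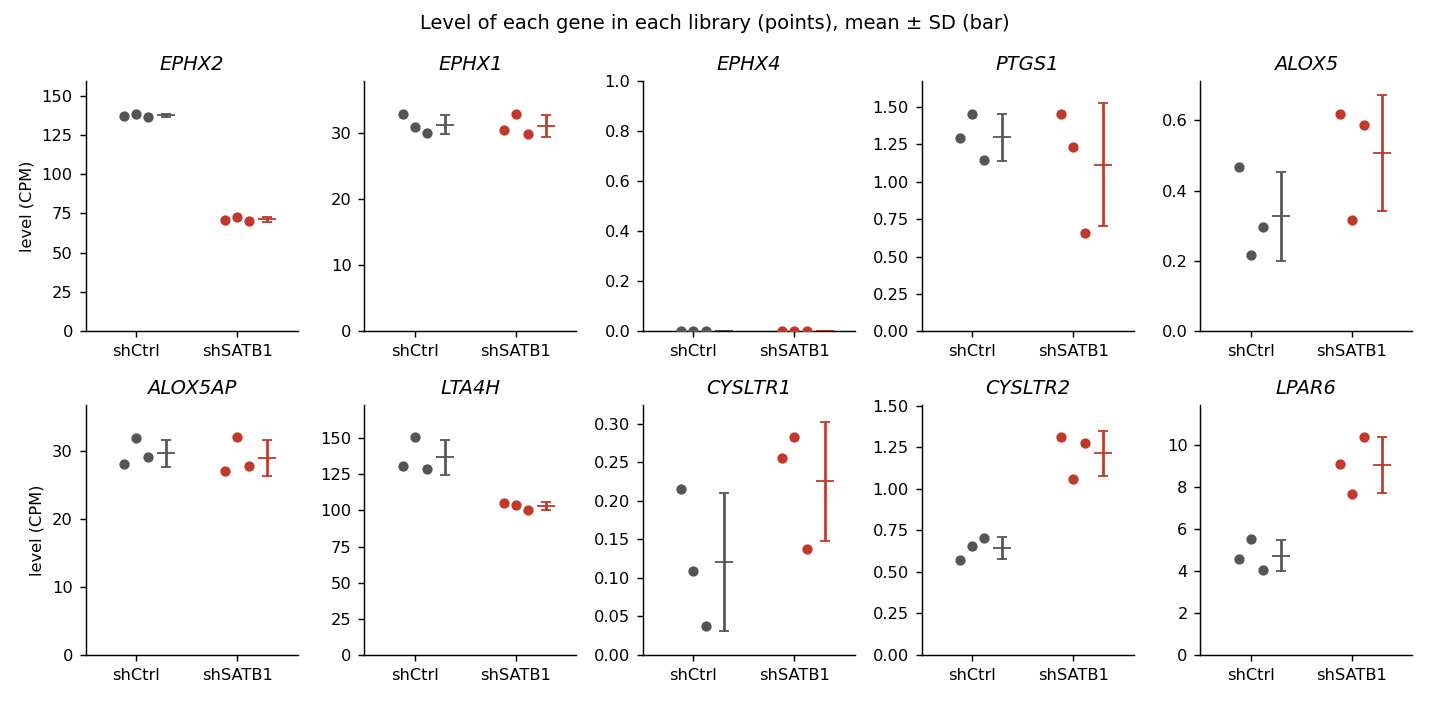
Level of each of the 10 genes in CPM (vertical axes, each from 0) in the 3 shCtrl and 3 shSATB1 libraries; points are libraries and bars give the mean ± SD. The groups stand apart for EPHX2, LTA4H, CYSLTR2 and LPAR6 and overlap for EPHX1, PTGS1, ALOX5, ALOX5AP and CYSLTR1, while EPHX4 had no read.

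EPHX2, the gene of soluble epoxide hydrolase, had the largest fall of the group. Its level was 136.9, 138.5 and 136.6 CPM in shCtrl 1, 2 and 3 and 71.0, 72.8 and 69.9 CPM in shSATB1 1, 2 and 3. All shSATB1 libraries lay far below all shCtrl libraries, and the replicates were close together, at 137.3 ± 1.02 and 71.2 ± 1.48 CPM (SD, n = 3). The log2 fold change was -0.95 (SE 0.058), which left 51.9% of the control level (95% interval 47.6% to 56.5%). Only 148 of the 17520 tested genes had a lower log2 fold change. It ran from -0.96 to -0.92 over 14 other settings, and the call was kept in each. EPHX2 (ENSG00000120915, hg38 chromosome 8, 27490779 to 27545564, plus strand) has 4473 exonic bases and no annotated gene overlaps it. The nearest tested genes on either side did not share its call. PTK2B, a tyrosine kinase gene that ends 31388 bases away, had a log2 fold change of -0.11 (adjusted p = 0.252, edgeR), and CLU, the clusterin gene that begins 51353 bases away, one of -0.54 (adjusted p = 0.0552, edgeR). CLU was called lower in 6 of 14 other settings, among them without shSATB1 replicate 3 (log2 fold change -0.82, adjusted p = 0.0136).

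EPHX1, the gene of microsomal epoxide hydrolase, which opens epoxides of drugs and other foreign compounds, stayed near its control level. It measured 32.9, 30.9 and 30.1 CPM with the control hairpin against 30.4, 32.9 and 29.9 CPM with the SATB1 hairpin. The groups overlapped, and the log2 fold change of -0.01 (SE 0.075) had a 95% interval from -0.17 to 0.15. Its gene (ENSG00000143819, chromosome 1, 225810092 to 225845563, plus strand) shares 28 exonic bases with TMEM63A, a membrane channel gene on the other strand (71.5 ± 13.6 and 77.6 ± 5.23 CPM, not called, but called higher without shCtrl replicate 1, log2 fold change 0.24). The antisense gene AL591895.1 also overlaps its span without sharing an exon (2.89 ± 0.359 and 2.44 ± 0.331 CPM, not called). EPHX4, a further member of the family (chromosome 1, 92029982 to 92063536), had 0 reads in all 6 libraries, where 3 reads would have been 0.103 to 0.111 CPM. EPHX3, which was not among the 10, stood at 0.449 ± 0.0157 and 0.459 ± 0.0229 CPM. Per kilobase of exon, EPHX2 was 2.33, 2.51 and 2.55 times the level of EPHX1 in shCtrl 1, 2 and 3 and 1.31, 1.24 and 1.31 times in shSATB1 1, 2 and 3. The hydrolase genes were therefore closer in level to each other in shSATB1, with EPHX2 still the higher one in each library.

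LTA4H, the gene of leukotriene A4 hydrolase, which makes leukotriene B4 and also acts as an aminopeptidase, was the other member called lower. Its level was 130.8, 150.6 and 128.7 CPM in shCtrl and 105.4, 104.0 and 100.3 CPM in shSATB1. Each shSATB1 library was below each shCtrl library, although shCtrl 2 stood above the other controls. The log2 fold change was -0.41 (SE 0.070; 95% interval -0.55 to -0.26), or 75.5% of the control level. shCtrl 2 also had the lowest percentage of reads outside annotated exons of the 6 libraries (7.77%). With that percentage as a covariate the log2 fold change was -0.21 and the call ended. Since that percentage did not overlap between the groups, its part and that of the hairpin cannot be told apart. LTA4H (ENSG00000111144, chromosome 12, 96000828 to 96043520, minus strand) shares 703 of its 7350 exonic bases with the antisense genes AC007298.2 and AC007298.1, which together held almost no reads (means of at most 0.0815 CPM). Of its nearest tested neighbours, the transcription factor gene ELK3 rose (log2 fold change 0.38, adjusted p = 0.0134, edgeR) and HAL, the histidine ammonia-lyase gene, was not called (0.49, adjusted p = 0.185). The ELK3 call ended when shCtrl 3 (0.31, adjusted p = 0.0847), shSATB1 1 (0.35, adjusted p = 0.0632) or shSATB1 3 (0.36, adjusted p = 0.0602) was left out, and once the covariate was added (0.49, adjusted p = 0.0586).

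Neither of the tested genes that act before LTA4H was called. ALOX5AP encodes FLAP, which presents arachidonic acid to the lipoxygenase, and measured 27.9, 31.8 and 28.99 CPM in shCtrl, against 27.0, 31.9 and 27.8 CPM under the SATB1 hairpin. The groups overlapped, with a log2 fold change of -0.03 (SE 0.085; 95% interval -0.22 to 0.15). ALOX5 (ENSG00000012779, chromosome 10, 45374176 to 45446119) encodes arachidonate 5-lipoxygenase itself and had only 13, 6 and 8 reads in shCtrl and 17, 9 and 17 reads in shSATB1. That is 0.466, 0.218 and 0.295 CPM against 0.619, 0.318 and 0.586 CPM, with overlapping groups and a wide interval (log2 fold change 0.63, 95% interval -0.30 to 1.55). No difference in ALOX5 was detected at this depth, and the interval leaves room for a rise or a modest fall. The oxygenase of the leukotriene route was thus close to its floor in both groups, while its helper FLAP and the hydrolase LTA4H were well expressed.

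PTGS1, the gene of the constitutive cyclooxygenase that starts prostanoid synthesis, was low as well. Its level was 1.29, 1.45 and 1.14 CPM in shCtrl, against 1.46, 1.23 and 0.655 CPM for the SATB1 hairpin. Each library held 19 to 40 of its reads. The groups overlapped, and shSATB1 3 lay below the other libraries. The log2 fold change was -0.22 (SE 0.295; 95% interval -0.86 to 0.41), and without shSATB1 replicate 3 it was 0.06. PTGS2, the inducible cyclooxygenase gene, had no read in shCtrl and a mean of 0.0475 CPM in shSATB1, under the floor of 3 reads.

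LPAR6, a receptor gene for lysophosphatidate, was higher in every shSATB1 library. It had 128, 152 and 110 reads in shCtrl and 250, 218 and 301 reads in shSATB1, or 4.59, 5.53 and 4.06 CPM against 9.10, 7.69 and 10.4 CPM. The highest shCtrl library lay below the lowest shSATB1 library. The log2 fold change was 0.94 (SE 0.147), or 191.5% of the control level (95% interval 154.0% to 238.2%). It stayed between 0.84 and 1.07 over 14 other settings, and the call was kept in each. CYSLTR2, a receptor gene for cysteinyl leukotrienes, was higher as well, at a far lower level. Its reads numbered 16, 18 and 19 in shCtrl and 36, 30 and 37 in shSATB1, or 0.574, 0.655 and 0.702 CPM against 1.31, 1.06 and 1.28 CPM. The groups did not overlap, and the log2 fold change was 0.91 (SE 0.274), or 188.3% of the control level (95% interval 125.3% to 283.0%). The call ended without shCtrl replicate 1 (log2 fold change 0.83) or 3 (0.98), without shSATB1 replicate 1 (0.86) or 3 (0.88), and with the covariate (0.88). CYSLTR1, the other receptor gene for cysteinyl leukotrienes, was below the filter, with 6, 3 and 1 reads in shCtrl and 7, 8 and 4 reads in shSATB1. Its groups overlapped, and no fold change is given.

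LPAR6 and CYSLTR2 lie on the same stretch of chromosome 13. LPAR6 (ENSG00000139679, 48389567 to 48444704, minus strand) lies inside RB1, the retinoblastoma tumour suppressor gene (48303726 to 48599436, plus strand), and CYSLTR2 (ENSG00000152207, 48653711 to 48711226, plus strand) begins 54275 bases beyond the end of RB1. The other tested genes of that stretch rose too. RB1 went from 464.1, 450.1 and 455.6 CPM in shCtrl to 661.8, 608.1 and 684.4 CPM in shSATB1 (log2 fold change 0.51, SE 0.063, adjusted p = 6.69e-05, edgeR). RCBTB2, a gene that also lies inside RB1 on the minus strand, went from 43.6, 49.5 and 43.5 CPM to 65.9, 69.6 and 66.8 CPM (0.57, SE 0.070, adjusted p = 6.54e-05, edgeR). Beyond both ends, the next tested genes, both for noncoding RNA, were not called. RB1-DT (0.33, interval -0.27 to 0.94, adjusted p = 0.403, edgeR) had only 17 to 31 reads per library. Its interval holds the values of RB1 and RCBTB2, so a rise of their size is not excluded. AL161421.1 (-0.15, interval -0.54 to 0.23, adjusted p = 0.552, edgeR) had 60 to 72 reads per library and lies 263741 bases beyond CYSLTR2. The 4 genes were set side by side after their values were seen, and whether they changed together as a region was not tested. Over all tested genes, 14.3% were called higher, and for 45.1% the groups did not overlap in either direction.

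**Figure D2:**
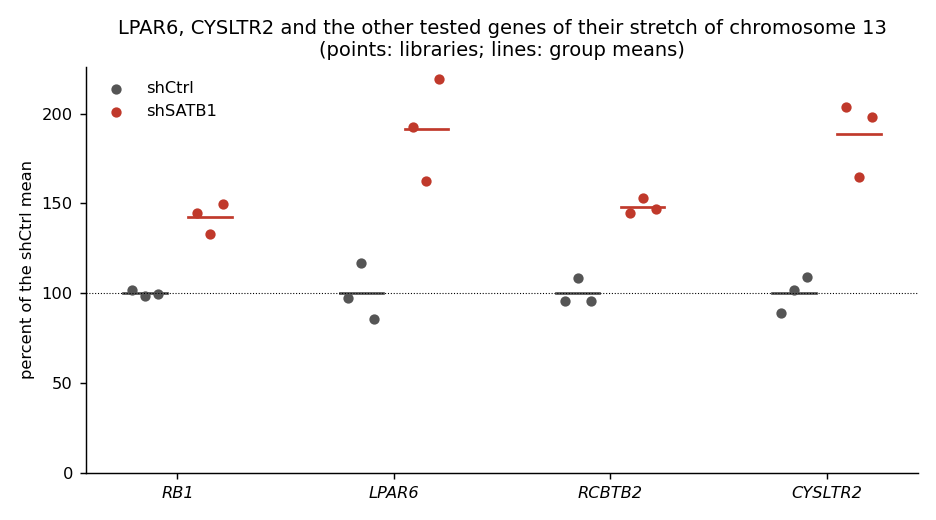
Levels of RB1, LPAR6, RCBTB2 and CYSLTR2 in each library as a percent of the gene's shCtrl mean (vertical axis from 0); points are libraries, short lines are group means and the dotted line marks 100%. All shSATB1 points lie above all shCtrl points for each of the 4 genes, with wider spread for LPAR6 and CYSLTR2.

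All 4348 exonic bases of LPAR6 lie within the span of RB1, and none is shared with an RB1 exon. The strand setting of the counting is not given, so reads from RB1 introns could count toward LPAR6. The same holds for RCBTB2, whose span also lies inside RB1. LPAR6 stood at 0.990, 1.23 and 0.892 CPM per 100 CPM of RB1 in shCtrl and at 1.38, 1.26 and 1.52 in shSATB1. The shSATB1 values were above the shCtrl values, narrowly so for shSATB1 2 against shCtrl 2. These libraries are also the ones with the lowest percentage of reads outside annotated exons of their group (10.9% and 7.77%). Whether RB1 intron reads contribute to the LPAR6 or RCBTB2 difference was not tested.

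The promoters of these receptor genes are shown because they were the members called higher, with that of LTA4H, which was called lower, for contrast. RefSeq gives 250 bases before and 50 after each start (GRCh38.p14), and 8 of the 10 genes were in that table, without EPHX2 and ALOX5. Capitals mark matches on either strand to 6 short motifs. These are the box upstream of many start sites spelled TATAAA, the box bound by the factor NF-Y spelled CCAAT, the box bound by SP family factors spelled GGGCGG, the core site of RUNX factors spelled TGTGGT, the core site of the GATA family spelled AGATAA, and a core site of ETS family factors spelled AGGAAG. LPAR6 is read on the minus strand at chr13:48413064-48413363, CYSLTR2 on the plus strand at chr13:48653679-48653978 and LTA4H on the minus strand at chr12:96035538-96035837. The LPAR6 and LTA4H windows lie inside the spans of the counted genes, which begin upstream at 48444704 and 96043520. Which start was used in these cells was not tested.
LPAR6: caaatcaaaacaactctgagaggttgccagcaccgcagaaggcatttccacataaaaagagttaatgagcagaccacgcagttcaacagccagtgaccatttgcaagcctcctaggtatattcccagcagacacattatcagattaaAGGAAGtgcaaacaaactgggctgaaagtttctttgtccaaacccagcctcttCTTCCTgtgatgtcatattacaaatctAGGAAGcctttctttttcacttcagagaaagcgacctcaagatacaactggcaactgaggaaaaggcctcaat
CYSLTR2: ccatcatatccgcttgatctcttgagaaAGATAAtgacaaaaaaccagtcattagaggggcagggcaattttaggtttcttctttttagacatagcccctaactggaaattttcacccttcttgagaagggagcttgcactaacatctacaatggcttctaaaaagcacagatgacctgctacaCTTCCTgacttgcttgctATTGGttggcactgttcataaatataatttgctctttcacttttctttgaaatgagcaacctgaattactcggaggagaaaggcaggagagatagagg
LTA4H: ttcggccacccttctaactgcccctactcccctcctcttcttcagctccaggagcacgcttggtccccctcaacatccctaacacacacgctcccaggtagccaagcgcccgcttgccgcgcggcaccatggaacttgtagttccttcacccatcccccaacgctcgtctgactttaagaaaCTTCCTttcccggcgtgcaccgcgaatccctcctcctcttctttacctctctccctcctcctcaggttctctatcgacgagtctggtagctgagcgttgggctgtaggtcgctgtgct

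The LPAR6 window held 3 matches, all to the ETS core, and the CYSLTR2 window 3, with 1 each to the NF-Y box, the GATA factor core and the ETS core. The LTA4H window held 1 match, to the ETS core, so that this was the only searched motif present in all 3 windows. Among 35116 promoters of the same length, 33.6% held the ETS core, 34.6% the NF-Y box, 10.3% the GATA factor core, 45.0% the SP box, 13.1% the RUNX core and 11.5% the upstream box named first. The receptor promoters were rich in A and T, at 56.7% for LPAR6 and 59.3% for CYSLTR2, against a median of 41.3% over all promoters and 41.3% for LTA4H. Of all promoters, 81.9% and 87.0% had a lower share of A and T than LPAR6 and CYSLTR2. CYSLTR1, which was not tested, had 58.0%. Its window held 4 matches to the ETS core, and that of ALOX5AP, which was not called, held 3. The EPHX1 and EPHX4 windows held none, and each PTGS1 window held 1. These matches describe the letters of the windows only.

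Compared per kilobase of exon, the 10 genes fell into a high and a low set. In shCtrl, EPHX2 was highest at 30.7 ± 0.228 CPM per kilobase, followed by LTA4H at 18.6 ± 1.64, ALOX5AP at 17.3 ± 1.17 and EPHX1 at 12.5 ± 0.591. LTA4H and ALOX5AP overlapped, and the other neighbours in this order did not. In plain CPM, EPHX2 and LTA4H were alike in shCtrl (137.3 and 136.7). Their order per kilobase thus rests on their annotated exon lengths (4473 and 7350 bases). In shSATB1, ALOX5AP (16.9 ± 1.54) and EPHX2 (15.9 ± 0.330) overlapped at the top, above LTA4H (14.0 ± 0.358) and EPHX1 (12.4 ± 0.651). LPAR6 came next in both groups, at 1.09 ± 0.171 and 2.08 ± 0.309. PTGS1, CYSLTR2, ALOX5 and CYSLTR1 were all under 0.3 CPM per kilobase in each library, where CYSLTR2 overlapped ALOX5 in shCtrl, and in shSATB1 CYSLTR2 overlapped PTGS1 and PTGS1 overlapped ALOX5. By exonic length, in 5 equal groups of tested genes, the median log2 fold change was -0.02, -0.08, -0.03, 0.03 and 0.11 from the shortest to the longest, and the tested members lie in the 4 shorter groups.

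Of 108 other genes of lipid mediator pathways, listed by role, 65 were tested, and 10 rose and 10 fell (15.4% each, close to the 14.3% and 16.6% of all tested genes). Their median log2 fold change was -0.09. With the covariate, 5 rose and 5 fell, and 7 of the 20 calls were kept, those of LPCAT4, AKR1C3, HPGD, PTGER3, PTGER4, CYP2U1 and LPAR5. The other 13 calls described next ended with it, some with a fold change about as large as before and some with a smaller one. The log2 fold changes of GPR17 (-0.96), DPEP2 (0.73), P2RY10 (1.13) and ACSL3 (-0.22) were then close to or beyond those without it. Those of COTL1 (-0.09), PTGES2 (-0.10), CYB5A (-0.12), GPR174 (0.16), PTGES3 (-0.21), PLA2G12A (-0.17), CYP4F2 (0.30), GPR34 (0.51) and SLCO2A1 (0.96) were smaller. Only 6 rose when shCtrl 3 was left out, and also 6 when shSATB1 3 was.

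Genes that free or re-attach fatty acids mostly did not pass. Of 9 tested genes of fatty acid release, 1 fell (11.1%, against 16.6% of all tested genes, median log2 fold change -0.14). This was PLA2G12A, a secreted phospholipase gene named after its values were seen, from 26.9 ± 1.77 to 21.8 ± 0.495 CPM (adjusted p = 0.00983, edgeR), and without shCtrl replicate 3 it missed the threshold (adjusted p = 0.0504). The phospholipase genes of highest level, PLA2G6 (49.4 ± 1.97 and 45.0 ± 2.82 CPM) and PNPLA8 (35.1 ± 2.89 and 37.5 ± 0.634 CPM), were not called. PLA2G4A, the cytosolic phospholipase that supplies most arachidonic acid in leukocytes, was below the filter at 0.122 and 0.155 CPM. Of 12 genes of re-esterification, 2 fell (16.7%, against 16.6% of all tested genes, median -0.05). The lysophospholipid acyltransferase gene LPCAT4 went from 52.0 ± 1.88 to 37.5 ± 3.09 CPM (adjusted p = 0.000401, edgeR) and the acyl-CoA synthetase gene ACSL3 from 97.4 ± 2.00 to 81.7 ± 1.95 CPM (adjusted p = 0.00523, edgeR).

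Leukotriene handling genes moved in both directions. Of 13 tested genes, 2 rose and 2 fell (15.4% each, against 14.3% and 16.6% of all tested genes, median -0.19). DPEP2, a dipeptidase gene that acts on cysteinyl leukotrienes, rose from 3.95, 3.75 and 3.58 CPM to 5.90, 6.77 and 4.86 CPM (log2 fold change 0.64, adjusted p = 0.00590, edgeR). CYP4F2, whose enzyme oxidises leukotriene B4, rose from 4.88 ± 0.412 to 6.88 ± 0.0998 CPM (0.50, adjusted p = 0.00734, edgeR). GPR17, a receptor gene related to the cysteinyl leukotriene receptors, fell from 2.19, 1.96 and 2.40 CPM to 1.20, 1.34 and 1.07 CPM (-0.86, adjusted p = 0.00746, edgeR). COTL1, an actin-binding protein that also binds the lipoxygenase, fell from 287.7 ± 24.1 to 234.1 ± 3.49 CPM (-0.30, adjusted p = 0.00450, edgeR). LTC4S, which makes leukotriene C4, was below the filter at 0.194 and 0.176 CPM, and the leukotriene B4 receptor gene LTB4R was at 0.825 and 0.600 CPM without a call (adjusted p = 0.271, edgeR).

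Prostanoid genes included rises and falls. Of 8 tested genes of synthesis, transport and breakdown, 2 rose (HPGD and SLCO2A1), 3 fell (AKR1C3, PTGES3 and PTGES2) and 3 were not called (PTGES, TBXAS1 and PTGR2), with a median of -0.09. These were 25% higher and 37.5% lower, against 14.3% and 16.6% of all tested genes. Of 4 tested receptors, 2 rose (50%, median 0.23). Nothing is read from the shares of such short lists. PTGER3, a receptor gene for prostaglandin E2, had the larger receptor rise, from 14.8, 11.5 and 13.4 CPM to 28.4, 25.0 and 29.7 CPM (log2 fold change 1.07, SE 0.102, adjusted p = 8.36e-06, edgeR). PTGER4, another receptor gene for prostaglandin E2, rose from 91.1, 89.0 and 92.1 CPM to 125.7, 129.8 and 129.7 CPM (0.50, SE 0.058, adjusted p = 3.89e-05, edgeR). Both receptor calls were kept in all 14 other settings. HPGD, the dehydrogenase that inactivates prostaglandins, rose from 52.7 ± 4.64 to 64.3 ± 2.72 CPM (0.29, adjusted p = 0.00948, edgeR), a call that ended when shCtrl 3 (adjusted p = 0.0656) or shSATB1 3 (adjusted p = 0.0531) was left out. SLCO2A1, the prostaglandin uptake transporter gene, named after its values were seen, rose from 0.251, 0.218 and 0.406 CPM to 0.692, 0.635 and 1.28 CPM (adjusted p = 0.0111, edgeR). That call rests on shSATB1 3, without which the adjusted p was 0.0854. AKR1C3, whose enzyme makes prostaglandin F, fell from 7.99 ± 0.191 to 4.61 ± 0.563 CPM (-0.79, adjusted p = 0.000430, edgeR). PTGES3, a co-chaperone that also acts as a prostaglandin E synthase, fell from 488.0 ± 49.2 to 361.4 ± 12.1 CPM (-0.43, adjusted p = 0.000693, edgeR). PTGES2, another prostaglandin E synthase gene, fell from 73.0 ± 3.33 to 61.2 ± 4.11 CPM (-0.25, adjusted p = 0.0123, edgeR), a call that ended when shSATB1 1 (adjusted p = 0.0742) or 3 (adjusted p = 0.0898) was left out.

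In the list of cytochrome P450 genes, their electron donors and EPHX3, 2 of 7 tested genes fell and the other 5 were not called (median -0.15). The share that fell was 28.6%, against 16.6% of all tested genes, and nothing is read from it. CYP2U1, a fatty acid hydroxylase gene, fell from 18.0, 19.2 and 19.0 CPM to 13.2, 12.2 and 12.3 CPM (log2 fold change -0.57, adjusted p = 0.000250, edgeR). CYB5A, which passes electrons to P450 enzymes, fell from 18.0 ± 1.86 to 13.9 ± 0.389 CPM (-0.38, adjusted p = 0.00840, edgeR). CYP2J2, an epoxygenase of arachidonic acid, was at 1.28 ± 0.174 and 1.16 ± 0.145 CPM and was not called (adjusted p = 0.676, edgeR).

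Of 12 tested genes of lysophosphatidate metabolism and lysophospholipid receptors, 4 rose and the other 8 were not called (median 0.22). Those 4 were all receptors. They made up 33.3% of this short list, against 14.3% of all tested genes called higher, and nothing is read from this share. LPAR5, another lysophosphatidate receptor gene, rose from 28.9 ± 1.03 to 34.7 ± 1.68 CPM (log2 fold change 0.26, adjusted p = 0.0149, edgeR). Leaving out shCtrl 3 (adjusted p = 0.0775) or shSATB1 2 (adjusted p = 0.0558) ended the call. GPR174, P2RY10 and GPR34 are known as receptors for lysophosphatidylserine. GPR174 rose from 464.0 ± 25.6 to 588.1 ± 37.1 CPM (0.34, adjusted p = 0.00197, edgeR). P2RY10 rose from 1.36, 1.35 and 0.665 CPM to 1.93, 2.26 and 2.48 CPM (0.98, adjusted p = 0.0117, edgeR) and lost the call when shCtrl 3 (adjusted p = 0.0544) or shSATB1 3 (adjusted p = 0.0615) was left out. GPR34 rose from 0.753, 0.509 and 0.480 CPM to 0.837, 1.09 and 1.24 CPM at the edge of the threshold (0.86, adjusted p = 0.0499, edgeR), and its call ended in 10 of 13 other settings, 5 of which leave out 1 library (adjusted p up to 0.180). LPAR2 (17.0 ± 1.26 and 16.4 ± 1.09 CPM) and LPAR4 (0.973 ± 0.485 and 1.54 ± 0.455 CPM) were not called. Of the 3 tested lysophosphatidate receptor genes besides LPAR6, 1 therefore rose.

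**Figure D3:**
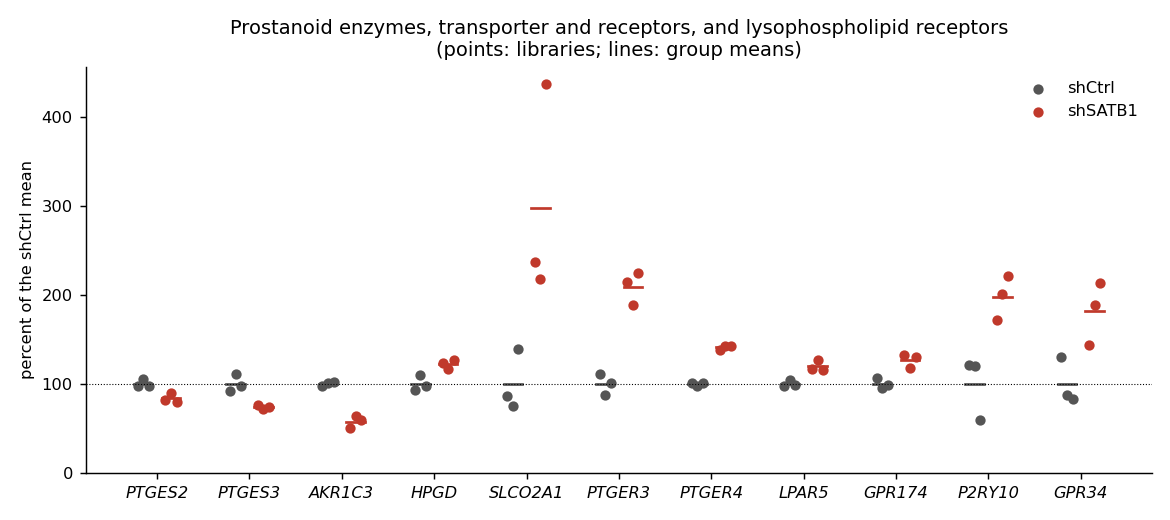
Levels of called prostanoid genes and lysophospholipid receptor genes in each library as a percent of the gene's shCtrl mean (vertical axis from 0); points are libraries and short lines group means. PTGES2, PTGES3 and AKR1C3 lie below 100% in all shSATB1 libraries and the other 8 genes above it, and 1 shSATB1 library stands far above the others for SLCO2A1.

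**Figure D4:**
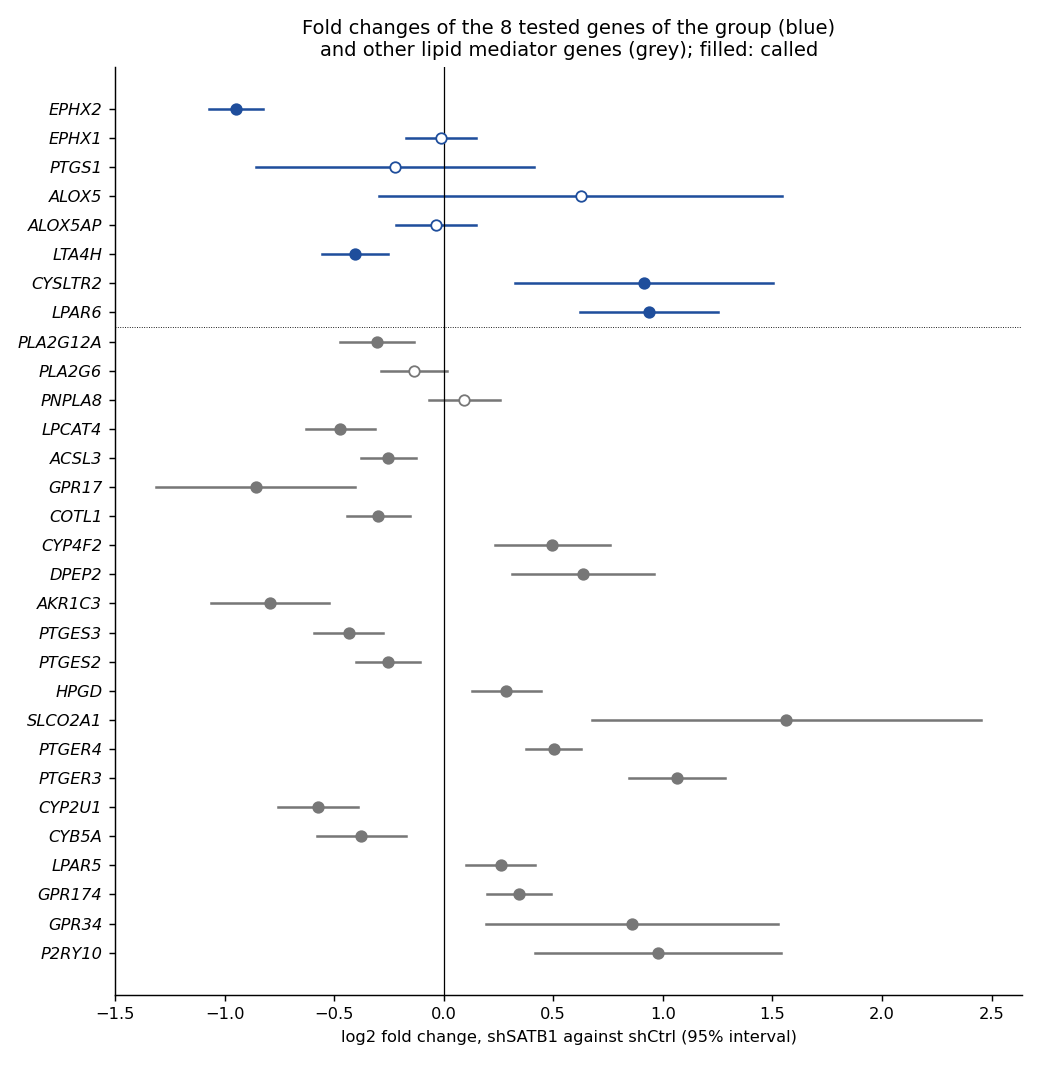
Log2 fold changes of shSATB1 against shCtrl (horizontal axis) with 95% intervals for the 8 tested genes of the group (blue) and 22 other lipid mediator genes (grey); filled points passed an adjusted p of 0.05 over all tested genes. EPHX2 lies at -0.95 with a narrow interval and LPAR6 at 0.94 with a wider one. ALOX5, SLCO2A1, GPR34, PTGS1, CYSLTR2 and P2RY10 have the widest intervals.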

How the data were processed

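RNA-seq of Jurkat cells gave 6 libraries, 3 shCtrl and 3 shSATB1, grouped by sample title. The authors deposited 1 table of raw counts per library, with Ensembl gene identifiers, not normalized or pooled. Per the submitters' processing notes, Trim Galore, STAR and HTSeq were used with hg38. Neither the annotation release nor the strand setting is given in the sources used here, so overlapping and antisense genes are uncertain. All 58735 identifiers were found in GENCODE 29, which gave symbols, hg38 positions and exon lengths. Reads in no annotated exon, ambiguous reads and reads without a unique alignment (7.77% to 11.7%, 8.99% to 10.1% and 4.22% to 4.53% of reads per library) stayed out of library sizes and tests. No libraries held the same values (chi-square per degree of freedom within groups 2.80 to 20.5).

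Differences between groups came from edgeR 4.0.16 in R 4.3.3 on the counts, by the quasi-likelihood F test without covariates, after TMM scaling and removal of low genes by filterByExpr (minimum count 10), with Benjamini-Hochberg adjustment over 17520 genes at 0.05. CPM are counts divided by the TMM-scaled library size, and standard errors come from the F statistic. The floor is 3 reads, which covers counting error only. The fit was tested on simulated counts. Other settings were DESeq2 size factors, upper quartile scaling, no filter, 1 CPM in 3 libraries, DESeq2 1.42.0, limma-voom 3.58.1, a replicate block, the percentage of reads outside annotated exons as a covariate, and leaving out each library. The genes, lists and settings were chosen with earlier results of these data known. Besides the 10 genes and SATB1, the rule named, per list, up to 4 called genes of largest change at 1 CPM or more in either group (or, with fewer than 2 calls, the 2 of highest level), genes overlapping a member or nearest to a called one, and the genes most similar in pattern to the pair of members of largest change.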

Additional observations from a re-analysis of the deposited data

How the results depend on the processing

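SATB1, EPHX2 and LPAR6 kept direction and call in all 14 settings, and counting depth limited ALOX5, PTGS1, CYSLTR1 and CYSLTR2 most, with at most 40 reads in a library. With the percentage of reads outside annotated exons as a covariate, 858 of all tested genes were higher and 1262 lower, 1 member was higher and 1 lower, and 5 other lipid mediator genes were higher and 5 lower. There LTA4H (-0.21) and CYSLTR2 (0.88) kept their direction without a call, and uncalled values changed sign for ALOX5 (-0.60), ALOX5AP (0.21), PTGS1 (0.016), TMEM63A (-0.28), AL591895.1 (0.097) and AL161421.1 (0.034). Leaving out 1 library gave 1650 to 3218 higher and 1817 to 3562 lower genes, 1 to 2 members higher, and 6 to 11 other lipid mediator genes higher. The count of higher genes was 1662 without shCtrl 3 and 1650 without shSATB1 3, and that of lower genes 1817 without shSATB1 1 and 1852 without shSATB1 3. Log2 fold changes then ran from 0.83 to 1.01 for CYSLTR2, -0.047 to 0.025 for EPHX1, -0.10 to 0.027 for ALOX5AP, 0.41 to 0.96 for ALOX5, 0.24 to 0.70 for HAL, -0.45 to 0.059 for PTGS1 and -0.020 to 0.24 for TMEM63A. EPHX1 was also at 0.0010 with upper quartile scaling and 0.0085 with the filter of 1 CPM. The causes were not tested. The labels give both groups replicate numbers 1 to 3. Same-numbered libraries deviated together only weakly (r = 0.080, 0.071 and 0.0032 across genes). The same-numbered library correlated best for shCtrl 1 and 2, while shCtrl 3 correlated best with shSATB1 1 (r = 0.016). Whether the numbers mark a pairing cannot be told from these values. With the replicate as a block, 2783 genes were higher and 3120 lower, members numbered 2 and 2, and other lipid mediator genes 10 and 11. The block changed no member call. The filter of 1 CPM gave no value for ALOX5, GPR34, SLCO2A1 and RB1-DT.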

Other observations

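CYSLTR1 lies near a row of lysophospholipid receptor genes on chromosome X, chosen here after their values were seen. Beyond its end (78271464 to 78327691, hg38) follow LPAR4, which begins 420018 bases away, P2RY10 at 617641 bases and GPR174 at 816972 bases. The shSATB1 mean was above the shCtrl mean for each of the 4, with 1.54 against 0.973 CPM for LPAR4 and 0.225 against 0.120 CPM for CYSLTR1, and P2RY10 and GPR174 were called. Neither LPAR4 nor CYSLTR1 separated the groups, and CYSLTR1 had only 1 to 8 reads per library. Only genes of the lists were taken from this region, and whether it changed as a whole was not tested.

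Over the 6 libraries, the tested genes of at least 1 mean CPM whose log2 CPM was most like that of EPHX2 were STAU1 (Pearson r = 0.9996), NPIPB4 (r = 0.9988) and LIG1 (r = 0.9988). STAU1, whose protein binds RNA duplexes, fell to 31.0% of control and LIG1, a DNA ligase gene, to 69.6% (edgeR adjusted p = 2.94e-09 and 2.72e-05), while NPIPB4 was at 90.0% and not called (adjusted p = 0.224). NPIPB4 belongs to a family of near-identical copies, so its count is uncertain. Those most like LPAR6 were RNF103, DCUN1D1 and SERINC1 (r = 0.9976, 0.9976 and 0.9973), which rose 1.29-fold, 1.26-fold and 1.26-fold (edgeR adjusted p = 0.00541, 0.00162 and 0.00162). The 6 points share the split into 2 groups, and these values are a description only.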
